A study of Mus musculus with 9 samples.

Results

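The genes described here encode the cadherins that are not part of the clustered protocadherin arrays: the classical and related Cdh genes, the desmosomal cadherins Dsc and Dsg, the nonclustered protocadherins and the 3 Celsr genes. Members were every protein-coding gene in GENCODE M21 (mouse build mm10) whose symbol is Cdh, Pcdh, Dsc or Dsg followed by a digit, or Celsr1 to Celsr3. There were 47 such genes, all of them among the 41128 genes of the count table, and 35 of them passed the low-count filter and were tested.

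RNA was sequenced from the dorsal telencephalon (future cortex and hippocampus) of newborn (P0) mice of strain B6:129SF2/J. The 9 libraries comprised 3 from wild-type mice (WT), 3 from mice labelled TCF4 heterozygote (Het) and 3 from mice labelled TCF4 knockout (KO). Tcf4 encodes a basic helix-loop-helix transcription factor. The deleted part of the gene, the number of pups behind a library and their litters are not given in the sources used here, so the spread behind each p-value may be partly technical. Total counts ran from 22291940 to 29445788 per library.

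Cadherins are calcium-dependent adhesion proteins whose extracellular repeats bind cadherins on neighbouring cells. Classical cadherins connect through catenins to the actin cytoskeleton, desmosomal cadherins connect through plakoglobin and plakophilins to intermediate filaments, delta-protocadherins signal through partners such as the WAVE actin regulators, and Celsr proteins act in planar cell polarity. In the developing cortex, the combination of cadherins a neuron carries differs between areas, layers and cell types, and cadherins take part in neuroepithelial junctions, migration and synapse formation.

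Tcf4 itself was counted at 584 to 728 CPM (counts scaled to library size) in WT, 652 to 822 CPM in Het and 611 to 638 CPM in KO. The 3 ranges overlapped, and no comparison was called by edgeR's quasi-likelihood test: KO against WT gave log2 -0.10 with adjusted p = 0.36, Het against WT 0.12 with adjusted p = 0.33, and KO against Het -0.22 with adjusted p = 0.13. Leaving out WT replicate 3 brought the first to adjusted p = 0.046, and the last passed under 4 alternatives (adjusted p from 0.038 to 0.043): without that library, without Het replicate 2, without the low-count filter and with only those genotypes fitted. The deleted part of Tcf4 is not given, so these counts could not check the genotype labels. Genotypes below are taken from the labels. Markers of cortical excitatory neurons were present (12 of 12 with counts, summed level 2260 to 2555 CPM in WT, 2540 to 2848 in Het and 2603 to 2724 in KO). Without Neurod6, the most abundant, the sums overlapped, at 1906 to 2123 CPM in WT, 1948 to 2155 in Het and 1950 to 1981 in KO. Of the 12 markers, 3 were called higher and 4 lower than WT in KO, and likewise in Het. Of all genes tested, 26.5% were higher and 26.3% lower in KO, and 22.5% higher and 23.4% lower in Het. Marker lists of other cell types, some of which differed between genotypes, are given below.

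More cadherin genes were lower than higher in the KO-labelled libraries. At an adjusted p under 0.05, 19 of the 35 tested members (54.3%) were lower in KO than in WT, against 26.3% of all 15271 genes tested, and 9 (25.7%) were higher, against 26.5%. With a fold of at least 1.5 as well, 11 members were lower (31.4%, against 11.6% of all genes) and 6 were higher (17.1%, against 10.8%). The median log2 fold change was -0.38 over the 35 members and 0.01 over all genes. WT libraries are shared with the next comparison.

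In Het versus WT the calls were split: 10 members were higher (28.6%, against 22.5% of all genes) and 11 were lower (31.4%, against 23.4%). With a fold of at least 1.5, 4 were higher (11.4%, against 7.51%) and 5 were lower (14.3%, against 8.98%), and the median was -0.08 against 0.01. In KO versus Het, 7 of 35 members were higher (against 8.3% of all genes) and 13 were lower (37.1%, against 8.44%). With the fold threshold, 1 was higher (2.9%, against 1.98%) and 6 were lower (17.1%, against 2.83%), and the median was -0.14 against 0.00. The count of members higher in KO than Het fell to 4 without Het replicate 1 or without KO replicate 3.

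A call in at least 1 comparison was made for 31 of the 35 tested members, against 62.9% of all genes tested, and for 10 of them in all 3 comparisons, against 6.7% of all genes. The 4 tested members with no call were Cdh6, Celsr3, Dsc2 and Pcdh11x. The commonest pattern, in 7 members and 2.97% of all genes, was a level lower in KO than in either other genotype with no Het versus WT call: Cdh9, Cdh12, Cdh20, Celsr2, Pcdh9, Pcdh12 and Pcdh20. Calls in 1 direction through all 3 comparisons were made for 7 members and 5.13% of all genes, downward in Cdh22, Pcdh1, Pcdh7 and Pcdh19 and upward in Celsr1, Pcdh8 and Pcdh18. Het was called apart from both other genotypes on the same side in 4 members, against 4.3% of all genes: above both for Cdh11 and Dsc3 and below both for Pcdh10 and Cdh4. The Het libraries also lay above all others for Pcdh9 and Dsg2, without a call against each. The weaker calls among these, and the settings that lose them, are given with each gene below.

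**Figure D1:**
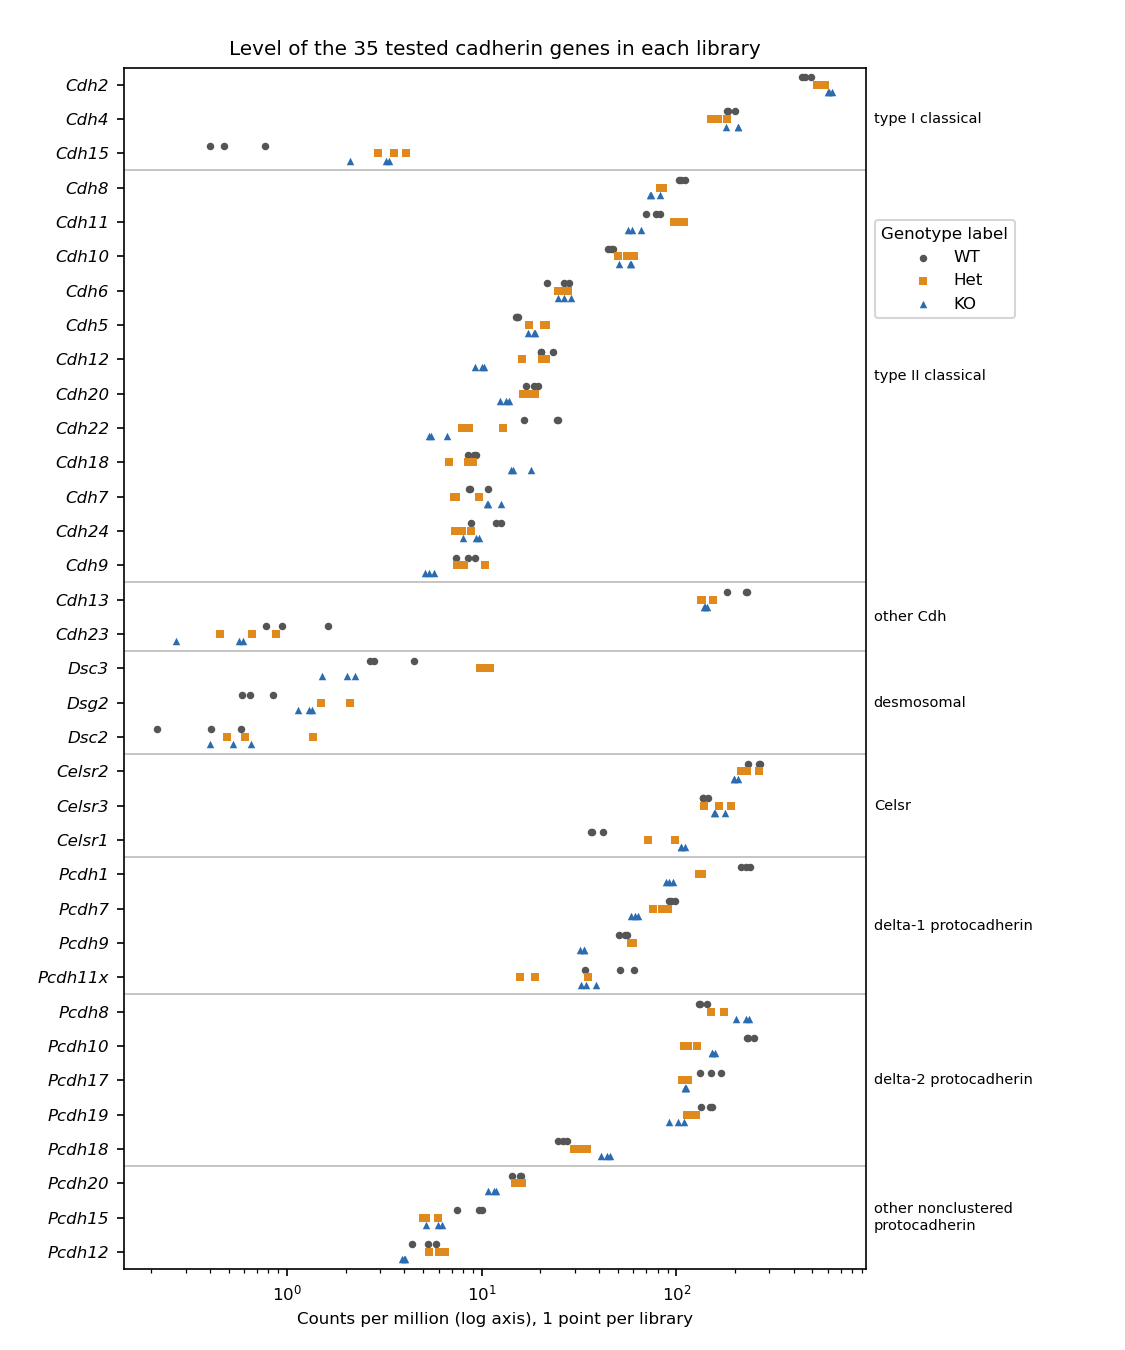
Level of the 35 tested cadherin genes in CPM (log axis), 1 point per library, ordered by subfamily and level, for WT (circles), Het (squares) and KO (triangles). The points of Cdh2 lie at 444 to 634 CPM while those of Cdh15, Cdh23, Dsg2 and Dsc2 lie under 5 CPM, and for Pcdh1 and Cdh22 the 3 genotypes form separate groups.

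**Figure D2:**
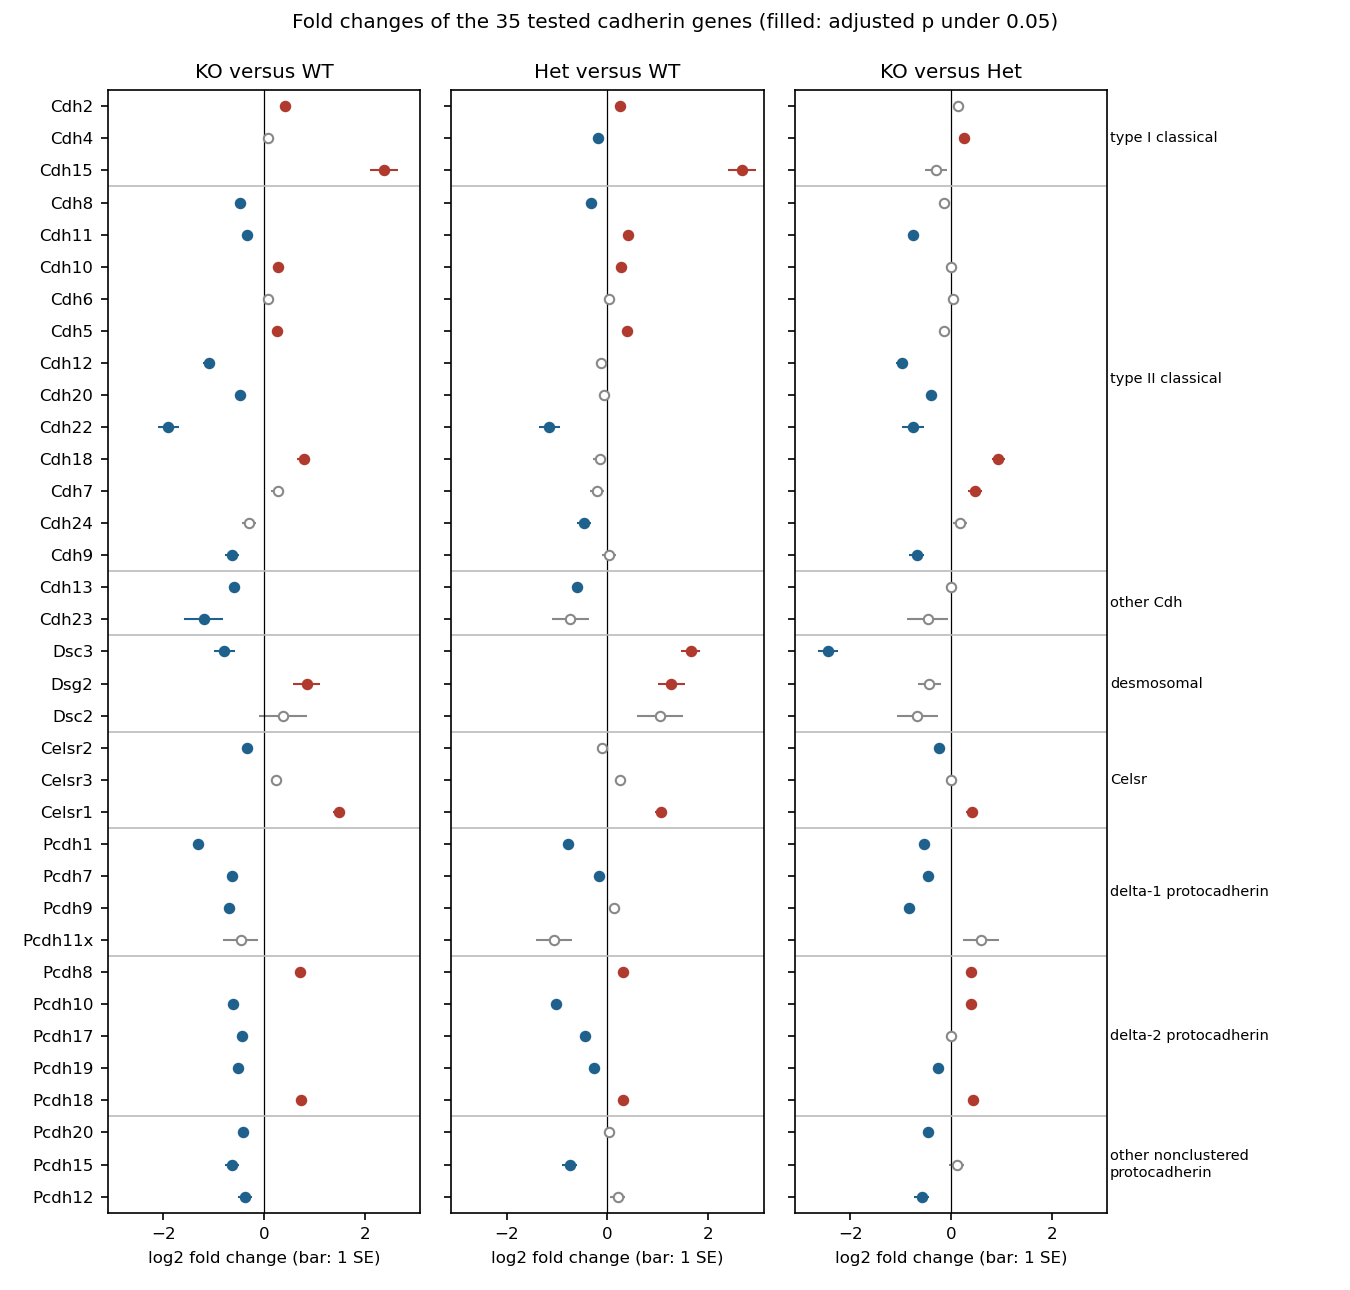
Log2 fold change with 1 SE for each tested member in the 3 comparisons, where filled points have an adjusted p under 0.05 (red higher, blue lower in the first-named genotype) and open points do not. Of the 35 members, 19 are filled blue and 9 filled red in KO versus WT.

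Among the type I classical cadherins, which include the founding N-cadherin, Cdh2 rose in both Het and KO. N-cadherin (chromosome 18, 16588877 to 16809246, minus strand) holds the adherens junctions of radial glia and of many neurons. Cdh2 was counted at 459, 490 and 444 CPM in WT, 555, 531 and 578 CPM in Het and 604, 634 and 607 CPM in KO. The 3 genotypes did not overlap, with log2 fold changes of 0.41 for KO against WT (SE 0.05, adjusted p = 9.3e-06) and 0.26 for Het against WT (SE 0.05, adjusted p = 0.0010). KO versus Het was 0.15 (SE 0.05, adjusted p = 0.071), and this became 0.18 with adjusted p = 0.047 without Het replicate 3. Its share of the summed CPM of all 47 members, not corrected for gene length, was 15.9% to 17.3% in WT, 20.4% to 21.8% in Het and 23.2% to 23.9% in KO.

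Cdh15, M-cadherin, known from muscle satellite cells and cerebellar granule cells, had the largest fold increase of any member, at a low level (chromosome 8, 122847966 to 122867397, plus strand). WT libraries held 17, 9 and 11 counts (0.768, 0.401 and 0.473 CPM), Het libraries 86, 121 and 85 (3.53, 4.09 and 2.94 CPM) and KO libraries 92, 88 and 63 (3.21, 3.35 and 2.09 CPM). Every Het and KO library lay above every WT library, while Het and KO overlapped. The log2 fold change was 2.39 for KO against WT (SE 0.28, adjusted p = 2.3e-06), 2.68 for Het against WT (SE 0.28, adjusted p = 8.8e-07) and -0.29 for KO against Het (SE 0.22, adjusted p = 0.40).

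Cdh4, R-cadherin, was at 189 ± 9.1 CPM in WT (SD, n = 3), 166 ± 16 in Het and 198 ± 16 in KO. It was called lower in Het than WT (-0.19, SE 0.07, adjusted p = 0.044) and higher in KO than Het (0.26, SE 0.07, adjusted p = 0.023). Both calls are weak: the first was lost under 12 of 18 alternatives (adjusted p from 0.050 to 0.21), among them leaving out any 1 WT library, Het replicate 1 or 3, or KO replicate 1 or 3, and the fold change was smallest without Het replicate 3, at -0.12. The second was lost without Het replicate 1 or 3 or KO replicate 1 or 3 and with a replicate block (adjusted p from 0.051 to 0.11). The epithelial type I genes Cdh1 and Cdh3 held 20 and 28 counts over all 9 libraries and were not tested. The type I genes together rose from 643 to 674 CPM in WT to 718 to 731 in Het and 815 to 818 in KO, a sum that Cdh2 dominates and that was not tested.

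The type II classical cadherins, which mark neuronal subpopulations and bind partly across family members, moved in both directions. Of 12 tested, 6 were lower and 3 higher in KO than WT, 3 lower and 3 higher in Het than WT, and 5 lower and 2 higher in KO than Het. The shares of all genes called lower and higher were 26.3% and 26.5% in KO versus WT, 23.4% and 22.5% in Het versus WT, and 8.44% and 8.3% in KO versus Het. For the type II genes the median log2 fold change was -0.32 for KO against WT, and the summed level was 362 to 378 CPM in WT, 355 to 382 in Het and 294 to 315 in KO.

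Cdh22, known as PB-cadherin of pituitary and brain, had the largest fold decrease of any member in KO versus WT (chromosome 2, 165111507 to 165234853, minus strand). It was counted at 24.3, 16.4 and 24.5 CPM in WT, 7.87, 12.8 and 8.54 CPM in Het and 6.62, 5.45 and 5.38 CPM in KO. No library of 1 genotype overlapped another genotype, and KO was 3.73-fold below WT (log2 -1.90, SE 0.21, adjusted p = 3.4e-05). Het was 2.23-fold below WT (log2 -1.15, SE 0.20, adjusted p = 0.0011). The step from Het to KO (log2 -0.75, SE 0.22, adjusted p = 0.041) was lost without Het replicate 2 or 3 or any 1 KO library (adjusted p from 0.054 to 0.15) and with a replicate block (adjusted p = 0.11).

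Cdh12, also called brain cadherin, was lower in KO than in both other genotypes (chromosome 15, 20449265 to 21589533, plus strand). Its WT libraries were at 20.1, 23.1 and 20.1 CPM, its Het libraries at 21.5, 20.5 and 16.1 CPM and its KO libraries at 10.2, 9.25 and 9.99 CPM. KO lay apart from both other genotypes, which overlapped. The log2 fold change was -1.10 for KO against WT (SE 0.11, adjusted p = 3.2e-07), -0.98 for KO against Het (SE 0.11, adjusted p = 9.1e-06) and -0.13 for Het against WT (SE 0.10, adjusted p = 0.34).

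Cdh18, another type II cadherin of the nervous system and the next member along the same chromosome (chromosome 15, 22549022 to 23474418, plus strand), had the opposite direction. It was at 9.08, 8.46 and 9.38 CPM in WT, 9.02, 8.49 and 6.74 CPM in Het and 14.5, 17.98 and 14.1 CPM in KO, so that every KO library was above every other library. The log2 fold change was 0.79 for KO against WT (SE 0.13, adjusted p = 6.0e-05), 0.94 for KO against Het (SE 0.13, adjusted p = 6.1e-05) and -0.15 for Het against WT (SE 0.13, adjusted p = 0.36).

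Sequence before the RefSeq start (GRCm38.p6) is shown because Tcf4 protein binds E-box hexamers. Cdh22 had the largest decrease, Cdh12 and Cdh18 are neighbours called in opposite directions, and the window of Celsr2 held the most matches; the last 3 were chosen after values were seen. The window of Cdh15 lies within annotated exons and is not shown. Capitals mark E-boxes, which were searched on both strands as the hexamer CAGGTG with its complement CACCTG, the palindrome CAGCTG, and the hexamer CATCTG with its complement CAGATG. Each run is 5′ to 3′ on the gene's strand and stops where a GENCODE M21 exon begins or, for Celsr2, at the RefSeq start.
Cdh22, chr2:165234854-165234987, minus strand: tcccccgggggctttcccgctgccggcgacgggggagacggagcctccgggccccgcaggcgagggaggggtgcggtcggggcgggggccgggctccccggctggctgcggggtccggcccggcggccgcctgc
Cdh12, chr15:21111202-21111333, plus strand: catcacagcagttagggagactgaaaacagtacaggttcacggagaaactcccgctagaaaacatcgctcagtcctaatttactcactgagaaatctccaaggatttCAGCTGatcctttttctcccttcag
Cdh18, chr15:23036213-23036454, plus strand: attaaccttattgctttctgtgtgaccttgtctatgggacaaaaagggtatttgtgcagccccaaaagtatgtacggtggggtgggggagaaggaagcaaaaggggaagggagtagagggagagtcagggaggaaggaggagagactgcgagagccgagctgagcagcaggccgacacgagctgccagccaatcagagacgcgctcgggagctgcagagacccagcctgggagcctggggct
Celsr2, chr3:108415580-108415829, minus strand: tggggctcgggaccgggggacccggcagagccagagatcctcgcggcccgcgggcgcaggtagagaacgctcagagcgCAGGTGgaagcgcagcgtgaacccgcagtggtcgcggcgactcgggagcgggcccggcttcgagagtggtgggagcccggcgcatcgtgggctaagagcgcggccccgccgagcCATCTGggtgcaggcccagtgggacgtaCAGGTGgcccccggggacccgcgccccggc
The runs of Cdh12 and Cdh18 lie inside the longer GENCODE gene, upstream of an internal start that RefSeq uses, and outside its exons. The Cdh12 match begins 143 bases before that start, and the Celsr2 matches begin 172, 58 and 30 bases before theirs. Of the members, 24 had 27 windows of 250 bases in the table, and 7 windows (25.9%) held a match, against 38.1% of all 32851 windows. A match here is a string of letters, and binding was not measured in these data.

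Cdh11, a cadherin of mesenchymal cells and of subsets of neurons, was highest in Het. The CPM values were 78.6, 82.3 and 69.7 in WT, 110, 97.6 and 101 in Het and 56.6, 58.8 and 65.9 in KO, and the genotypes did not overlap. Het was above WT (log2 0.42, SE 0.07, adjusted p = 0.00018) and KO was below WT (log2 -0.35, SE 0.07, adjusted p = 0.00071), so that KO was 1.70-fold below Het (log2 -0.76, SE 0.07, adjusted p = 1.6e-06). The list of mural and meningeal fibroblast markers was higher in Het (148 to 174 CPM summed) and in KO (155 to 171) than in WT (90.6 to 110). In that list 4 of 10 markers rose and none fell in Het, against 22.5% and 23.4% of all genes. In KO 3 rose and 1 fell, against 26.5% and 26.3% of all genes. Without its most abundant marker, Rgs5, the list summed to 50.1 to 66 CPM in WT, 53.6 to 67.7 in Het and 53.2 to 63.2 in KO, which overlapped. The part of these cells in the Cdh11 values was not tested.

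Cdh9, studied at hippocampal synapses, was at 8.54, 9.26 and 7.40 CPM in WT, 10.3, 7.48 and 8.13 in Het and 5.37, 5.10 and 5.64 in KO. KO was below both (log2 -0.64, SE 0.14, adjusted p = 0.0012 against WT and log2 -0.68, SE 0.14, adjusted p = 0.0031 against Het). Cdh20 had the same pattern with a smaller size, at 18.3 ± 1.3 CPM in WT, 17.3 ± 1.2 in Het and 13.2 ± 0.73 in KO (log2 -0.48 against WT, adjusted p = 0.00032). Cdh8, a marker of cortical areas, was at 106 ± 4.2 CPM in WT and was lower in Het (84.3 ± 1.5, log2 -0.33, adjusted p = 0.00016) and KO (76.7 ± 5.3, log2 -0.47, adjusted p = 3.0e-06). Cdh10 rose to a like extent in Het and KO (log2 0.27 in each, adjusted p = 0.011 and 0.0073), from 46.0 ± 1.4 CPM to 55.4 ± 5.5 and 55.6 ± 4.3.

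Cdh5, VE-cadherin, the junctional cadherin of blood vessels, was at 15.2 ± 0.11 CPM in WT, 19.9 ± 2.0 in Het (log2 0.39, SE 0.09, adjusted p = 0.0019) and 18.2 ± 0.86 in KO (log2 0.26, SE 0.09, adjusted p = 0.021). The KO call was lost on leaving out WT replicate 1, WT replicate 3, KO replicate 1 or KO replicate 2, with adjusted p of 0.052 to 0.076. Summed endothelial markers were at 183 to 186 CPM in WT, 208 to 226 in Het and 199 to 207 in KO. Of the 9, 6 were called higher in Het (22.5% of all genes). In KO 3 were higher and 1 lower (26.5% and 26.3% of all genes). In bulk tissue, a change in the number of cells of a type and a change in RNA per cell cannot be told apart. Cdh6, at 25.3 ± 3.3 CPM in WT, was called in no comparison (log2 0.07, SE 0.09 for KO against WT). Cdh24 was lower in Het than WT (11.1 ± 2.0 to 7.98 ± 0.73 CPM, log2 -0.47, adjusted p = 0.010), a call lost without WT replicate 2 (adjusted p = 0.055), and its KO versus WT value of -0.30 (adjusted p = 0.076) had adjusted p = 0.012 without WT replicate 3. Cdh7 was higher in KO than Het (11.3 ± 1.1 against 8.08 ± 1.4 CPM, log2 0.48, adjusted p = 0.021), which was lost without Het replicate 1 or 3 or KO replicate 3 (adjusted p from 0.068 to 0.089). Cdh7 was not called in KO versus WT (log2 0.27, adjusted p = 0.10), where leaving out WT replicate 3 gave adjusted p = 0.046.

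Of the remaining Cdh genes, Cdh13, T-cadherin, which is held to the membrane by a lipid anchor and has no cytoplasmic tail, fell by like amounts in Het and KO. It was at 183, 232 and 229 CPM in WT, 135, 154 and 134 in Het and 144, 141 and 138 in KO, so that all 6 Het and KO libraries lay below all WT libraries. The fall was 1.52-fold in each (log2 -0.60, SE 0.08, adjusted p = 3.4e-05 in KO and 5.1e-05 in Het), with a KO versus Het difference of 0.00 (SE 0.08). Cdh23, a tip-link component of hair cells, was rare, with 36, 21 and 18 counts in WT, 16, 26 and 13 in Het and 17, 7 and 17 in KO. Those counts correspond to 1.63, 0.935 and 0.775 CPM in WT, 0.656, 0.880 and 0.450 in Het and 0.593, 0.267 and 0.564 in KO, and every KO library was below every WT library. Its KO versus WT call (log2 -1.20, SE 0.39, adjusted p = 0.015) was lost without WT replicate 1 (adjusted p = 0.12), without KO replicate 2 (adjusted p = 0.072) and with limma on log2 FPKM with either pseudocount (adjusted p from 0.065 to 0.11). Cdh17, Cdh19 and Cdh26 held 30, 18 and 38 counts in all, and Cdh16 none, so no level could be compared.

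The desmosomal genes were near the detection limit in this tissue except for Dsc3. Desmocollin 3 (chromosome 18, 19960930 to 20002351, minus strand) had the largest difference of any member between KO and Het. Counts were 99, 60 and 65 in WT, 270, 309 and 282 in Het and 43, 53 and 67 in KO, or 4.47, 2.67 and 2.80 CPM in WT, 11.1, 10.5 and 9.75 CPM in Het and 1.499, 2.02 and 2.22 CPM in KO. The 3 genotypes did not overlap. Het was 3.15-fold above WT (log2 1.65, SE 0.18, adjusted p = 2.0e-06), KO was 1.73-fold below WT (log2 -0.79, SE 0.21, adjusted p = 0.0039) and KO was 5.43-fold below Het (log2 -2.44, SE 0.19, adjusted p = 1.8e-07). Leaving out WT replicate 1, the highest WT library, changed the KO against WT difference to -0.52 (adjusted p = 0.037).

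Dsg2, desmoglein 2, was called higher in both Het and KO than in WT. It was counted at 0.587, 0.846 and 0.646 CPM in WT, 2.09, 1.49 and 1.49 in Het and 1.29, 1.33 and 1.13 in KO, with no overlap between WT and the others. The log2 fold change was 1.27 in Het (SE 0.26, adjusted p = 0.00091) and 0.85 in KO (SE 0.27, adjusted p = 0.015), and the KO call was lost without WT replicate 1 or 3 (adjusted p = 0.0569 and 0.0505). Its exons overlap 330 bases of an antisense gene, Gm16090, and whether counting used strand is not stated, so reads of the pair cannot be separated. Dsc2 was at 0.400 ± 0.18 CPM in WT, 0.817 ± 0.46 in Het and 0.523 ± 0.12 in KO. Its Het versus WT value of 1.04 (adjusted p = 0.068) had adjusted p of 0.033 to 0.042 without Het replicate 1, without WT replicate 2 or without the low-count filter.

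The other 6 desmosomal genes, Dsc1, Dsg1a, Dsg1b, Dsg1c, Dsg3 and Dsg4, held 4 to 39 counts each over the 9 libraries and were not tested. Within them, Dsg1c was found in the WT libraries, with 8, 14 and 7 counts, and almost nowhere else, with 1 count in a Het library and 0 in KO. It was picked out after its values were seen. Between 39.4% and 60.0% of the 31-base words of the Dsg1 genes also occur in transcripts of other genes, so reads among them could be split or lost. Summed markers of surface epithelium, where desmogleins are abundant, were at 11.4 to 12.7 CPM in WT, 9.64 to 10.2 in Het and 8.87 to 12 in KO. Almost all of this was Krt10, and the other 6 markers summed to 0.624 to 0.99 CPM in WT, 0.83 to 1.62 in Het and 0.99 to 1.22 in KO. The part of such cells in the desmosomal counts was not tested.

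The Celsr genes, adhesion receptors of planar cell polarity, changed unequally. Celsr1, used by progenitors and other epithelia (chromosome 15, 85898929 to 86033777, minus strand), was at 42.1, 36.3 and 37.0 CPM in WT, 71.3, 71.4 and 97.9 CPM in Het and 106, 110 and 106 CPM in KO. No genotype overlapped another, with KO 2.79-fold above WT (log2 1.48, SE 0.12, adjusted p = 2.8e-06) and Het 2.08-fold above WT (log2 1.06, SE 0.12, adjusted p = 5.0e-05). The step from Het to KO (log2 0.42, SE 0.11, adjusted p = 0.031) was lost under 9 alternatives (adjusted p from 0.052 to 0.11), which included leaving out WT replicate 3, Het replicate 1, Het replicate 2 or any 1 KO library.

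Celsr2 and Celsr3 act in axon tract formation, and Celsr2 also in ciliated ependymal cells. Celsr2 was at 256 ± 21 CPM in WT, 237 ± 25 in Het and 201 ± 5.3 in KO, lower in KO than WT (log2 -0.35, SE 0.07, adjusted p = 0.00092). Its KO versus Het call (log2 -0.24, adjusted p = 0.038) was lost with a replicate block, with limma on log2 FPKM, and without Het replicate 1, Het replicate 3 or any 1 KO library (adjusted p from 0.056 to 0.15, with a fold change of -0.15 without Het replicate 3). Leaving out Het replicate 3 also gave a Het versus WT value of -0.19 with adjusted p = 0.036. Celsr3, at 140 ± 4.4 CPM in WT, 165 ± 26 in Het and 164 ± 11 in KO, was not called (log2 0.23, adjusted p = 0.061 for KO against WT and log2 0.24, adjusted p = 0.064 for Het against WT). It was called higher in KO under 7 of the 18 alternatives (adjusted p from 0.0023 to 0.044) and in Het under 5 (adjusted p from 0.00069 to 0.043). DESeq2, both limma fits, the fit without a low-count filter and leaving out Het replicate 1 gave both calls, and leaving out Het replicate 3 or fitting only those genotypes gave the KO call. As a sum, the 3 Celsr genes were at 406 to 453 CPM in WT, 441 to 553 in Het and 461 to 495 in KO.

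**Figure D3:**
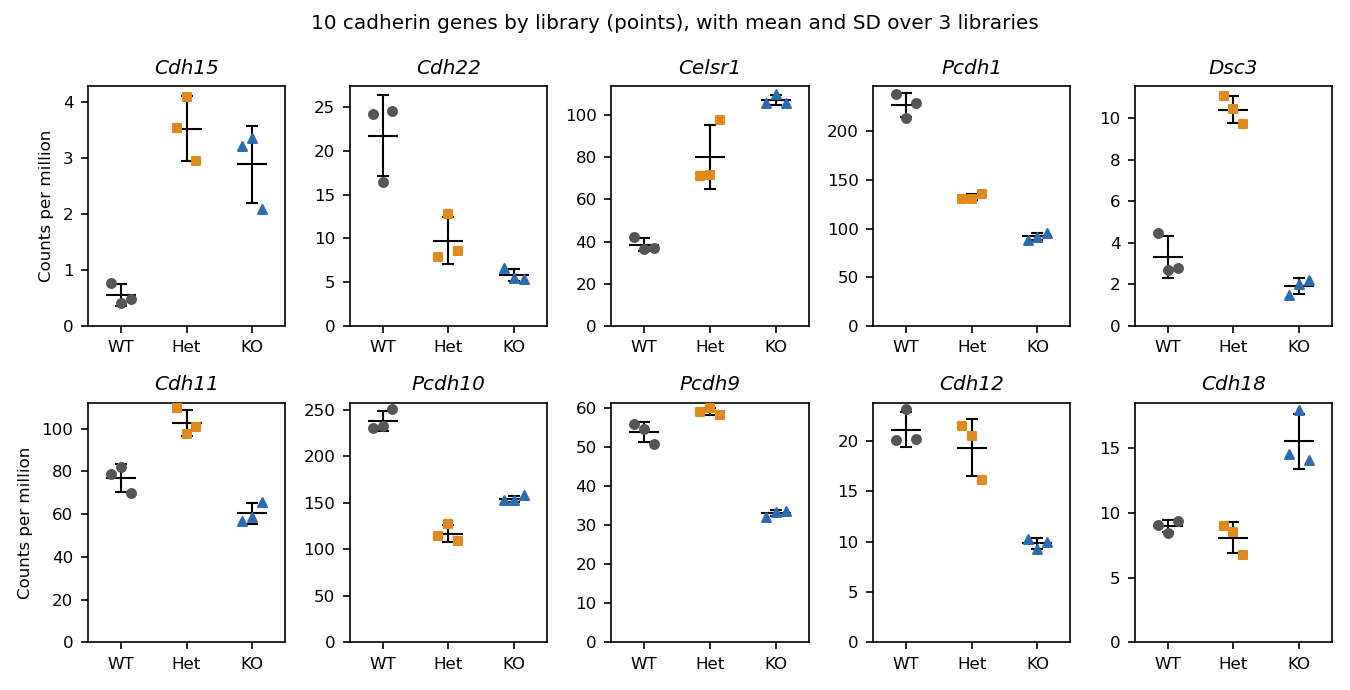
CPM of 10 members in each library (points; replicates 1 to 3 from left to right), with the mean (horizontal bar) and SD (error bar) over 3 libraries per genotype. Cdh15 is low only in WT, Cdh22, Celsr1 and Pcdh1 step from WT through Het to KO, Dsc3 and Cdh11 peak in Het, Pcdh10 is lowest in Het, and Pcdh9, Cdh12 and Cdh18 differ in KO.

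The delta-1 protocadherins, which carry a protein phosphatase binding motif in the cytoplasmic tail, fell in 3 of 4 cases. In KO versus WT those 3 were lower and none higher, where 26.3% of all genes were lower, with a median log2 fold change of -0.67, and in Het versus WT 2 were lower, where 23.4% of all genes were. Their summed level was 401 to 449 CPM in WT, 285 to 317 in Het and 218 to 224 in KO.

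Pcdh1 (chromosome 18, 38185914 to 38212053, minus strand) had the smallest adjusted p of any member. It was at 238, 214 and 229 CPM in WT, 131, 131 and 136 CPM in Het and 88.7, 91.2 and 95.9 CPM in KO. The genotypes formed separate groups, with KO 2.47-fold below WT (log2 -1.30, SE 0.05, adjusted p = 8.0e-12), Het 1.71-fold below WT (log2 -0.78, SE 0.05, adjusted p = 7.9e-09) and KO 1.44-fold below Het (log2 -0.53, SE 0.05, adjusted p = 3.4e-06).

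Pcdh9, a protocadherin of cortical and sensory circuits (chromosome 14, 93013410 to 93890679, minus strand), was lower in KO than in both other genotypes. The values were 55.8, 54.6 and 50.9 CPM in WT, 59.1, 60.0 and 58.3 CPM in Het and 32.1, 33.4 and 33.6 CPM in KO. KO was 1.63-fold below WT (log2 -0.70, SE 0.06, adjusted p = 1.1e-07) and 1.79-fold below Het (log2 -0.84, SE 0.06, adjusted p = 1.2e-07). Each Het library was above each WT library, with a log2 difference of 0.14 (SE 0.06, adjusted p = 0.083) that had an adjusted p of 0.032 with upper-quartile scaling and 0.038 to 0.040 with limma on log2 FPKM.

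Pcdh7 was at 94.2, 98.5 and 91.2 CPM in WT, 76.0, 90.8 and 84.4 in Het and 63.3, 58.8 and 61.6 in KO, so that the KO libraries stood below all others (log2 -0.63 against WT, SE 0.06, adjusted p = 4.5e-07, and log2 -0.45 against Het, SE 0.06, adjusted p = 0.00011). Its Het versus WT call (log2 -0.18, adjusted p = 0.032) was lost under 8 alternatives (adjusted p from 0.051 to 0.21), with a smallest fold change of -0.10 without Het replicate 1, and it was also lost without Het replicate 3, WT replicate 1 or WT replicate 2. Pcdh7 exons overlap 2235 bases of the antisense gene 4932441J04Rik, whose reads could not be separated. Pcdh11x varied widely within genotypes, at 60.5, 33.8 and 51.1 CPM in WT, 18.8, 35.1 and 15.7 in Het and 38.7, 34.4 and 32.5 in KO. Its Het versus WT value of -1.06 (SE 0.36, adjusted p = 0.051) was called under 7 alternatives (adjusted p from 0.0039 to 0.049), which were DESeq2, both limma fits, RLE scaling, a filter of 1 CPM in 3 libraries and leaving out Het replicate 2 or WT replicate 2. Its KO versus Het value of 0.60 (adjusted p = 0.33) became 1.02 with adjusted p = 0.049 without Het replicate 2.

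The delta-2 protocadherins, some of which bind the WAVE complex, split into 2 that rose and 3 that fell in both Het and KO. Of all genes, 26.5% were higher and 26.3% lower in KO than WT, and 22.5% higher and 23.4% lower in Het than WT. Their summed level was 672 to 722 CPM in WT, 543 to 550 in Het and 604 to 647 in KO. Pcdh10, also called OL-protocadherin and needed for striatal and thalamocortical axon growth, was lower in Het than in KO (chromosome 3, 45378398 to 45435623, plus strand). It was at 230, 233 and 251 CPM in WT, 115, 127 and 109 CPM in Het and 153, 153 and 158 CPM in KO. No genotype overlapped another, with Het 2.04-fold below WT (log2 -1.03, SE 0.06, adjusted p = 1.1e-09), KO 1.54-fold below WT (log2 -0.62, SE 0.06, adjusted p = 2.0e-07) and KO 1.32-fold above Het (log2 0.40, SE 0.06, adjusted p = 0.00017).

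Pcdh18 and Pcdh8 rose in steps. Pcdh18 (chromosome 3, 49743296 to 49757325, minus strand) was at 27.5, 26.1 and 24.7 CPM in WT, 34.7, 31.9 and 29.6 in Het and 44.1, 45.3 and 40.8 in KO, without overlap (log2 0.73 for KO against WT, SE 0.08, adjusted p = 7.2e-07, and 0.30 for Het against WT, SE 0.08, adjusted p = 0.0054). Pcdh8, also called arcadlin or PAPC, is induced by neuronal activity and takes part in N-cadherin endocytosis (chromosome 14, 79766775 to 79771312, minus strand). It was at 144, 132 and 130 CPM in WT, 175, 150 and 176 in Het and 236, 227 and 202 in KO, again without overlap (log2 0.71 for KO against WT, SE 0.07, adjusted p = 5.7e-07, and 0.30 for Het against WT, SE 0.07, adjusted p = 0.0026). The KO versus Het values were 0.44 (adjusted p = 0.00083) for Pcdh18 and 0.41 (adjusted p = 0.00092) for Pcdh8.

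Pcdh17, a protocadherin of corticostriatal synapses, fell by like amounts in Het and KO, from 150 ± 18 CPM to 111 ± 4.1 and 112 ± 0.61 (log2 -0.44 and -0.43, adjusted p = 6.6e-05 and 5.4e-05). Pcdh19, an X-linked gene known from an epilepsy of heterozygous females, was at 145 ± 9.2 CPM in WT, 120 ± 6.4 in Het and 101 ± 8.6 in KO (log2 -0.52 for KO against WT, adjusted p = 5.6e-06, and -0.27 for Het against WT, adjusted p = 0.0033). KO replicate 3 held Xist, the noncoding RNA of the inactive X chromosome, at 90.6 CPM, while no WT or Het library exceeded 0.0452 CPM, and it had the lowest Pcdh19 level, 92.1 CPM. Pcdh11x, also X-linked, was at 32.5 CPM in that library, its lowest KO value. Ddx3y, a Y-linked gene, ranged from 0.0664 to 42.2 CPM in KO, against 35.4 to 42.5 in WT and 41.3 to 44.7 in Het. The lowest value was that of KO replicate 3, so by these 2 genes that library was female and all WT and Het libraries were male. Sex was thus unbalanced in both comparisons with KO, and its part in the values of other members was not tested. Without KO replicate 3, Pcdh19 was at -0.46 for KO against WT (adjusted p = 6.5e-05). The KO versus Het call of -0.25 (adjusted p = 0.014) was lost without that library (adjusted p = 0.063), without KO replicate 1 (0.053) or without Het replicate 2 (0.060).

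All 3 remaining protocadherins were lower in KO than WT, where 26.3% of all genes were lower. Pcdh15, a hair-cell tip-link protein that is also found in oligodendrocyte precursors, was at 10.03, 9.62 and 7.45 CPM in WT, 4.96, 5.95 and 5.15 in Het and 6.24, 5.18 and 5.94 in KO. All Het and KO libraries were below all WT libraries (log2 -0.75 in Het, SE 0.14, adjusted p = 0.00044, and -0.64 in KO, SE 0.14, adjusted p = 0.0012). Oligodendrocyte-lineage markers summed to 419 to 451 CPM in WT, 223 to 227 in Het and 211 to 246 in KO. Of these, 9 of 9 were lower in KO (26.3% of all genes) and 8 of 9 lower in Het (23.4% of all genes). Their part in the Pcdh15 values was not tested.

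Pcdh20 was lower in KO than in both other genotypes, changing from 15.3 ± 0.82 CPM in WT and 15.7 ± 0.71 in Het to 11.4 ± 0.54 (log2 -0.42 against WT, adjusted p = 0.00085, and -0.46 against Het, adjusted p = 0.0019). Pcdh12, an endothelial protocadherin, was at 5.15 ± 0.73 CPM in WT, 5.93 ± 0.58 in Het and 3.96 ± 0.069 in KO. Its KO versus WT call (log2 -0.38, adjusted p = 0.040) was lost under 11 alternatives (adjusted p from 0.053 to 0.17), among them DESeq2, a replicate block (adjusted p = 0.055) and leaving out WT replicate 1, WT replicate 3 or any 1 KO library. Its KO versus Het call (log2 -0.58, SE 0.14, adjusted p = 0.011) was lost with limma on log2(FPKM + 0.1) alone (adjusted p = 0.055). The sum of endothelial markers, given with Cdh5, was at 183 to 186 CPM in WT and 199 to 207 in KO. Of these 9 markers, 3 were called higher and 1 lower in KO than WT, against 26.5% and 26.3% of all genes. The part of these cells in the Pcdh12 values was not tested.

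Other marker lists differed between genotypes, some in the same order as members. For the counts below, 26.5% of all genes were higher and 26.3% lower in KO than WT. The shares were 22.5% and 23.4% in Het versus WT, and 8.3% and 8.44% in KO versus Het. Intermediate progenitor markers summed to 98.7 to 116 CPM in WT, 227 to 254 in Het and 396 to 427 in KO, the same order as Celsr1, Pcdh8 and Pcdh18. Of the 6 tested markers in that list, 6 were higher in KO than WT, 5 in Het than WT and 5 in KO than Het. Striatal neuron markers summed to 585 to 622 CPM in WT, 169 to 196 in Het and 183 to 200 in KO, with 15 of 16 lower in KO and 16 of 16 in Het. The members called lower than WT in both Het and KO were Cdh8, Cdh13, Cdh22, Pcdh1, Pcdh7, Pcdh10, Pcdh15, Pcdh17 and Pcdh19. Of these, 4 were also called lower in KO than Het, 4 had no KO versus Het call, and Pcdh10 was called higher in KO than Het. Of all genes, 2.74%, 15.4% and 0.674% had these patterns. The Het versus WT call of Pcdh7 was lost under 8 alternatives. Interneuron markers were at 823 to 885, 613 to 700 and 585 to 645 CPM (9 of 12 lower in KO and in Het), and astrocyte markers at 780 to 825, 419 to 459 and 345 to 399 CPM (7 of 8 lower in each) in WT, Het and KO. Cajal-Retzius cell markers were at 424 to 474 CPM in WT, 691 to 896 in Het and 620 to 699 in KO (5 of 6 higher in each). Radial glia markers were at 1395 to 1470 CPM in WT, 1170 to 1285 in Het and 1272 to 1372 in KO. Without Fabp7, the most abundant of them, the order changed, to 757 to 766 CPM in WT, 690 to 777 in Het and 807 to 860 in KO. Of the 9 markers, 4 were higher and 2 lower in KO than WT, and 4 higher and 3 lower in Het than WT. In KO versus Het, 4 were higher and 0 lower. Microglia markers were at 103 to 117, 56.4 to 62 and 64.5 to 68.3 CPM in WT, Het and KO (6 of 8 lower in KO and 7 of 8 in Het). No gene of these lists was at 0 in all libraries, and the part of these cell types in the cadherin values was not tested.

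Some members that neighbour each other on a chromosome were called in opposite directions and others in the same direction. On chromosome 15, Cdh6, Cdh9, Cdh10, Cdh12 and Cdh18 follow each other, and their KO versus WT log2 fold changes were 0.07, -0.64, 0.27, -1.10 and 0.79, of which the first was not called. Cdh12 and Cdh18, called in opposite directions, are 959.5 kb apart. On chromosome 14 the order Pcdh8, Pcdh17, Pcdh20, Pcdh9 had values of 0.71, -0.43, -0.42 and -0.70. On chromosome 3, Pcdh10 at -0.62 and Pcdh18 at 0.73 lie 4.31 Mb apart. Chromosome 18, which also carries Tcf4, held 12 members, the most of any chromosome. Called there in KO versus WT were Cdh2 (0.41), Dsc3 (-0.79), Dsg2 (0.85), Pcdh1 (-1.30) and Pcdh12 (-0.38). Dsc2 (0.38) was not called, and the others there did not pass the low-count filter. Any part of linkage to Tcf4 in these values was not tested.

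**Figure D4:**
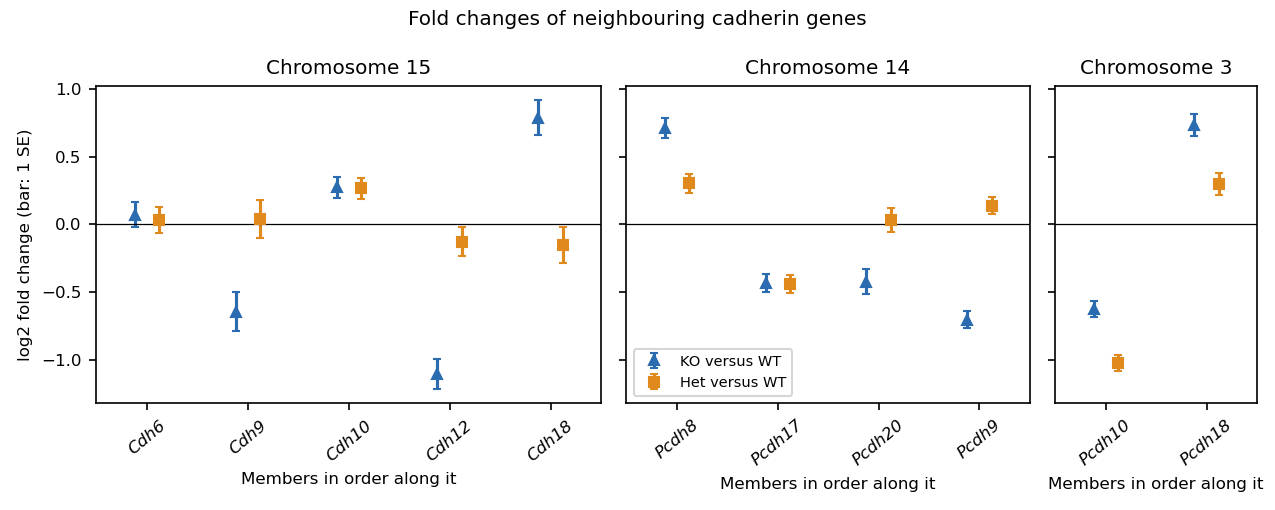
Log2 fold change (points, with 1 SE) of members in their order along chromosomes 15, 14 and 3, for KO versus WT (triangles) and Het versus WT (squares), comparisons that share the WT libraries. Cdh12 and Cdh18 are neighbours with KO versus WT values of -1.10 and 0.79.

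Levels of different members can be set side by side only per length. On the deposited FPKM scale the highest WT levels were Cdh4 (120 ± 5.5 FPKM, SD, n = 3), Cdh2 (114 ± 5.2), Celsr2 (102 ± 8.5), Cdh13 (94.4 ± 11) and Pcdh1 (52.2 ± 3.4). The WT libraries of Cdh4 (116 to 127 FPKM) and Cdh2 (109 to 119 FPKM) overlapped. The gene length behind those FPKM values was 21.2% of the annotated exonic length for Cdh4, 21.4% for Celsr2, 19.8% for Cdh13 and 49.5% for Cdh2. Per kilobase of annotated exons the order was Cdh2 (57.6 ± 2.9 CPM per kb), Pcdh8 (29.8 ± 1.7), Cdh4 (26.0 ± 1.3), Pcdh1 (25.8 ± 1.4) and Celsr2 (22.2 ± 1.8), where Cdh4 and Pcdh1 did not differ beyond their spread. The lowest tested members on the FPKM scale were Dsc2 (0.102), Cdh23 (0.188), Cdh15 (0.189) and Dsg2 (0.197).

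Of the catenins, which link classical cadherins to actin, 5 were called higher in KO than WT. Ctnna1, alpha-E-catenin, rose from 53.8 ± 2.4 to 70.4 ± 2.6 CPM (log2 0.39, adjusted p = 0.00011) and Ctnna2, alpha-N-catenin, from 213 ± 2.6 to 271 ± 14 CPM (log2 0.34, adjusted p = 7.6e-05). Ctnnd1, p120-catenin, rose from 14.2 ± 0.75 to 18.2 ± 1.5 CPM (log2 0.36, adjusted p = 0.0038) and Ctnnd2, delta-catenin, from 316 ± 5.0 to 378 ± 11 CPM (log2 0.26, adjusted p = 0.00043). Ctnnb1, beta-catenin, was called at 0.12 (adjusted p = 0.036), which was lost with a replicate block and without any 1 WT library, KO replicate 1 or KO replicate 2 (adjusted p from 0.060 to 0.12). Jup, plakoglobin, went the other way, from 102 ± 5.7 CPM in WT to 62.0 ± 3.7 in Het and 61.5 ± 4.7 in KO (log2 -0.72 and -0.73, adjusted p = 2.6e-07 and 1.2e-07). Over the 15 catenin and plaque genes, 12 were tested, 5 were higher and 2 lower in KO than WT (all genes 26.5% and 26.3%), and the median log2 fold change was -0.06.

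Of 11 other genes of the cadherin superfamily that were tested, 7 were lower in KO than WT, against 26.3% of all genes, and 2 higher, against 26.5%, with a median of -0.33. In Het versus WT 5 were lower, against 23.4% of all genes, and 5 higher, against 22.5%. The Het calls of Cdhr1, Fat3, Cdhr2 and Fat2 were lost under 10, 7, 5 and 2 alternatives, and the rest held under each. The largest changes in that list were those of Fat2 (1 to 3 counts per WT library and 31 to 35 in KO, adjusted p = 4.8e-06, with a fitted log2 value of 3.41 that depends on the prior count), Cdhr1 (log2 -2.72, adjusted p = 0.0081) and Ret, the receptor for GDNF-family ligands (log2 -1.05, adjusted p = 2.3e-05). The Fat2 call was lost with limma on log2(FPKM + 1) (adjusted p = 0.14). Its WT libraries were below the minimum count of 10, so Fat2 passed the low-count filter through its other libraries. Its place among the 2 genes called higher is therefore not independent of that filter. Leaving out WT replicate 3 changed the Cdhr1 value to -1.87 (adjusted p = 1.5e-05). Among 12 planar polarity partners of Celsr proteins, 4 were higher and 2 lower in KO than WT (all genes 26.5% and 26.3%), led by the core polarity genes Prickle2 (log2 -0.76, adjusted p = 2.7e-08), Vangl2 (log2 0.74, adjusted p = 7.5e-06) and Dvl2 (log2 0.73, adjusted p = 1.3e-06).

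Among 10 proteases that mature or cleave cadherins, 5 were higher and 3 lower in KO than WT (all genes 26.5% and 26.3%), with Pcsk5, a proprotein convertase, at log2 1.16 (adjusted p = 8.7e-06), Adam17, a sheddase, at 0.46 (adjusted p = 0.0034) and Psen2, a gamma-secretase subunit, at -0.35 (adjusted p = 0.0047). Of 8 WAVE complex genes, 4 were lower and 2 higher in KO than WT (all genes 26.3% and 26.5%), with Abi2 at -0.44 (adjusted p = 2.0e-06), Wasf1 at -0.42 (adjusted p = 1.1e-06) and Cyfip2 at -0.40 (adjusted p = 3.1e-06), and their summed level was 1580 to 1625 CPM in WT, 1516 to 1546 in Het and 1374 to 1411 in KO. The medians were 0.10 for the polarity genes, 0.14 for the proteases and -0.10 for the WAVE genes.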

How the data were processed

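The authors deposited raw counts per gene and FPKM values for 9 libraries. The submitters' processing notes list HTSeq 0.6.1, DESeq 1.10.1, TopHat2 2.0.9 and Bowtie2 2.0.6, with mm10 as the build. The deposited FPKM values follow from the counts, 1 length per gene and the library total, and were used to order members by level and in the limma alternatives. Counts were fitted with edgeR 4.0.16 in R 4.3.3: filterByExpr (minimum count 10, minimum total 15) left 15271 genes, followed by TMM scaling and a quasi-likelihood model (robust option) holding the 3 genotypes in 9 libraries, which leaves 6 residual degrees of freedom. Benjamini-Hochberg adjustment ran over all genes, with a threshold of 0.05. CPM values use TMM-scaled library totals, and an SE is the log2 fold change divided by the square root of F. Adjusted p-values are from this edgeR fit unless another tool is named.

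Members were matched by Ensembl ID to GENCODE M21 (40254 of 41128 genes matched), and promoter sequences are from RefSeq (GRCm38.p6). Exonic overlap with antisense genes was found for Cdh8, Cdh9, Dsg2, Pcdh7, Pcdh8, Pcdh10 and Pcdh19. Strand use in counting is not stated, so reads of these pairs could not be separated. Per-library values were printed for members with an adjusted p under 0.05 and a fold of at least 1.5 in any comparison (18 of 35 tested) and for Cdh2 and Pcdh11x; up to 3 called partner genes per list with the largest KO versus WT fold were named, with the catenins. Cdh2, Pcdh11x and Dsg1c values were chosen after values were seen. The members, gene lists and rules were chosen with earlier results of these data known. Alternatives were other scaling factors and filters, DESeq2 1.42.0, limma 3.58.1 on log2(FPKM + 1) and log2(FPKM + 0.1), a replicate block, fits of 2 genotypes alone and leaving out each library. The procedure was tested on simulated counts. Figures were drawn with matplotlib 3.10.9.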

Additional observations from a re-analysis of the deposited data

How the results depend on the processing

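Of 105 pairs of a tested member and a comparison, 69 were called. Of these, 55 stayed called under each of the 18 alternatives run and 14 were lost under at least 1. None changed sign, and 10 of the 36 pairs not called were called under some alternative. The count of members at least 1.5-fold lower in KO than WT was 11 and became 4 with limma on log2(FPKM + 1) and 6 with limma on log2(FPKM + 0.1). The cause was not tested. Leaving out 1 library, members higher in KO than Het ranged from 4 to 7, and those at least 1.5-fold higher from 1 to 3, with 3 reached without Het replicate 2. Same-numbered libraries of different genotypes had correlated deviations of -0.106 to 0.084, so the numbers were not treated as pairs. A replicate block gave 9 members higher and 18 lower in KO than WT, 10 and 10 in Het than WT, and 6 and 11 in KO than Het. The median of all genes moved by at most 0.049 in log2 units under any alternative. Cdh15, Cdh23, Dsc2 and Dsg2 rest on at most 121 counts per library, and smaller differences in them were not detectable at this depth.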
